A study of Mus musculus with 10 samples.

Results

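Expression of 42 genes of the cell cycle and of DNA replication was followed in the distal ileum, the end of the small intestine nearest the colon, of 10 mice. The genes were taken from a list of symbols by their known function, with no threshold on their values here. Earlier results of these data were known when they were chosen. All 42 were found among the 42989 genes of the deposited tables. By the stage at which their products are known to act, 17 were assigned to S phase and its preparation, 24 to G2 and mitosis (G2/M), and the D-type cyclin gene Ccnd1 was kept apart as the single G1 cyclin.

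All 10 mice were male, wild-type (WT) and of the C57BL/6J strain with diet-induced obesity (DIO), and gavage began at 10 weeks of age. Over 4 weeks, 5 mice were given taurodeoxycholic acid (TDCA), which gut bacteria and the liver together make from primary bile acids, in doses of 10 mg/kg. The other 5 received water in an equivalent volume over the same time. The libraries, called TDCA 1 to 5 and water 1 to 5, were made from total RNA depleted of ribosomal RNA, extracted from about 20 mg of frozen tissue, and held between 27349003 and 44342245 reads on genes. Values are normalized counts, which are reads divided by a size factor per library. The series' design text calls the mice of each group biological replicates, and neither pooling nor batches are described in the labels. Enterocyte genes of the ileum were abundant in all libraries (the 11 listed markers summed to 586595 to 1151350 normalized counts in TDCA and 1132910 to 1398390 in water ilea).

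A dividing cell first loads the helicase made of Mcm2 to Mcm7 onto replication origins with the help of Cdc6 and Cdt1, and cyclin E with Cdk2 then drives entry into S phase, when the clamp PCNA holds the polymerases on DNA. Cyclin A and B with Cdk1 drive mitosis, in which Aurora and Polo-like kinases build the spindle, checkpoint kinases watch the attachment of chromosomes, and the anaphase-promoting complex ends the phase by destroying cyclins. In the small intestine most dividing cells are transit-amplifying cells and stem cells of the crypts, and dividing B cells in germinal centres of Peyer's patches are another source of these transcripts. Genes of S phase are known as targets of E2F factors, and many genes of G2/M are known to be bound through CCAAT boxes and the cell cycle homology region (CHR) by NF-Y and the DREAM and MuvB complexes.

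The promoters of the 3 S phase and the 3 G2/M genes with the smallest limma p among those with an entry are shown because motif content differed between the phases, as counted after them. Sequences are RefSeq windows on GRCm38.p6, an older build than the GRCm39 of the processing notes. Each runs 5′ to 3′ along the gene for 300 bases, 250 before the annotated start and 50 from it. Capitals mark matches, on either strand, to the CCAAT box (CCAAT), the CHR (TTTGAA or TTTAAA) and the E2F consensus (TTTCCCGC, TTTCGCGC, TTTGCCGC or TTTGGCGC). The S phase windows are Pcna at chr2:132253131-132253430 on the minus strand, Mcm7 at chr5:138171834-138172133 on the minus strand and Tyms at chr5:30073576-30073875 on the minus strand. The G2/M windows are Cdkn3 at chr14:46760291-46760590 on the plus strand, Cdk1 at chr10:69352863-69353162 on the minus strand and Ccnb1 at chr13:100786437-100786736 on the minus strand.
Pcna: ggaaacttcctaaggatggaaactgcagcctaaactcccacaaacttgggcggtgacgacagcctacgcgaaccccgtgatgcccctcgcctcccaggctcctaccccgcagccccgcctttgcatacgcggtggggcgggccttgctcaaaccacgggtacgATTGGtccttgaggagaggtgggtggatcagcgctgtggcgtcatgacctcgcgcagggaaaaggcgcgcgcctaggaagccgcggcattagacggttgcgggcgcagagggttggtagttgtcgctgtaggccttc
Mcm7: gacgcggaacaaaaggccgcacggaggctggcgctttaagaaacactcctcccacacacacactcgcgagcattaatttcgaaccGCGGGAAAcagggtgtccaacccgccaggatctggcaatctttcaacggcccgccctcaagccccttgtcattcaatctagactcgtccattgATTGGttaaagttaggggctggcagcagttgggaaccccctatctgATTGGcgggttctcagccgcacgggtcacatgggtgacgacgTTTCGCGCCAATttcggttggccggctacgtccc
Tyms: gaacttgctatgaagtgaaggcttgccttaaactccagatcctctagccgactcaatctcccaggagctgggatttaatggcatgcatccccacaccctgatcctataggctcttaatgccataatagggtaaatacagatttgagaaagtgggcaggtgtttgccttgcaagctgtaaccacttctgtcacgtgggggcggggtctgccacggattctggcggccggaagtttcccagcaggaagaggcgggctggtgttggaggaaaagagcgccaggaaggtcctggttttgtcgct
Cdkn3: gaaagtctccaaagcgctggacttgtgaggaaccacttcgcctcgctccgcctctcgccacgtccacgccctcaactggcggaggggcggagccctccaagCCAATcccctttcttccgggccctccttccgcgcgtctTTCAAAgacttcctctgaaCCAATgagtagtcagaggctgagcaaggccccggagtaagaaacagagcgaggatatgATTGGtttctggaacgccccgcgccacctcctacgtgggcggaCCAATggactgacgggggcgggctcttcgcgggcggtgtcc
Cdk1: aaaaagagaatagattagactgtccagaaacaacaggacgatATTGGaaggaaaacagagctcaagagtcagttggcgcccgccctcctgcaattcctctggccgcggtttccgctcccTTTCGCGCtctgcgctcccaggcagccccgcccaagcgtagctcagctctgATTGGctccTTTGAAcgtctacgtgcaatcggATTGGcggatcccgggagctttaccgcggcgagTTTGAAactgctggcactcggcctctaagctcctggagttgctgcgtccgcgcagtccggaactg
Ccnb1: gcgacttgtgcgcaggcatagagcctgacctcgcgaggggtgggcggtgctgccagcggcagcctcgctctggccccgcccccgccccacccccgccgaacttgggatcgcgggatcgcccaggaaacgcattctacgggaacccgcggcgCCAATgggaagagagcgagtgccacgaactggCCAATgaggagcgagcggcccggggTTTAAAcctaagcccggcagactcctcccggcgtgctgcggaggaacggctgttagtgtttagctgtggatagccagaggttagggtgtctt

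Counting the start as position 1, the Cdk1 window held CHR matches at −71 and −15 and CCAAT boxes at −208, −80 and −48, besides an E2F match at −131. The Ccnb1 window held a CHR match at −42 with CCAAT boxes at −99 and −67. The Cdkn3 window held a CHR match at −111 and 4 CCAAT boxes. In the Mcm7 window E2F matches began at −165 and 17, the second sharing letters with a CCAAT box at 24, and a further RefSeq window of Mcm7 held a CCAAT box at −47. The Pcna window held a CCAAT box at −87, and the Tyms window held none of these letters.

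An entry in the promoter table was found for 34 of the 42 genes, leaving out Aurkb, Ccna2, Ccnd1, Ccne2, Foxm1, Gmnn, Mcm4 and Tpx2. A gene with several windows was counted once, as holding a motif if any window did. Among G2/M genes 19 of 20 held a CCAAT box (95%), 19 a CHR match (95%) and 18 both (90%). Of the 27025 genes with a window, 41.1% held a CCAAT box, 30.6% a CHR match and 13.4% both. Among S phase genes 9 of 14 held a CCAAT box (64.3%) and 5 a CHR match (35.7%). The E2F consensus was found for 7 of 14 S phase genes (50%), for Cdk1 alone of the 20 G2/M genes (5%) and for 2.6% of all genes. These matches describe letters and not binding.

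**Figure D1:**
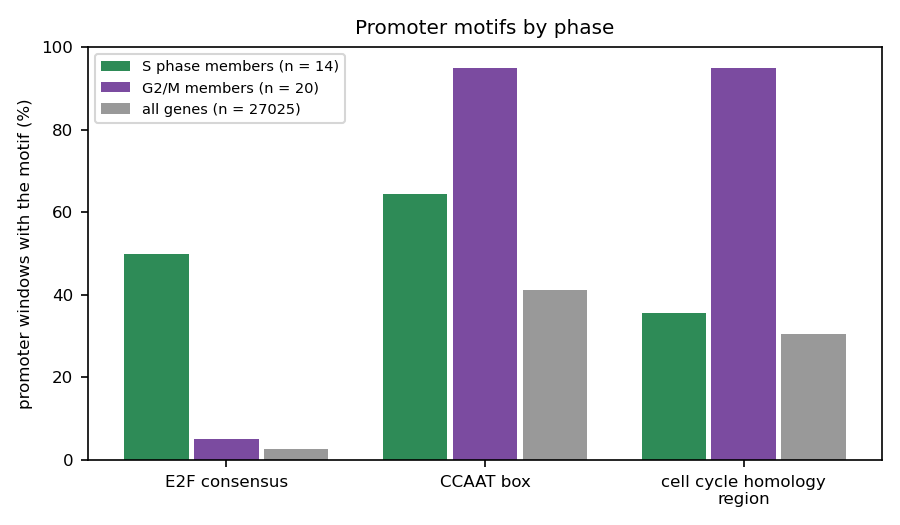
Percentage of genes whose promoter windows (vertical axis) hold each motif (horizontal axis) for S phase genes (green, 14), G2/M genes (purple, 20) and all genes with a window (grey, 27025). The CHR bar of G2/M genes stands at 95%, against 35.7% for S phase genes and 30.6% for all genes, and the E2F bar is highest for S phase genes at 50%.

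The comparison of TDCA with water asks whether the bile acid altered the ileal transcripts, here those of dividing cells. All 42 genes passed the filter of at least 10 normalized counts in at least 5 libraries, so none was lost to low values. In the fit across the 17507 genes tested, 38 of the 42 had a lower mean in TDCA than in water ilea and 4 had a higher one (40 and 2 with quantile normalization), beside 52.1% of all genes with a lower mean. The median log2 fold change of the 42 was −0.28, beside −0.01 over all tested genes, and single genes ranged from −1.13 for Cdkn3 to 0.13 for Cdc6. No gene of the list passed limma at an adjusted p under 0.05 (smallest 0.448), and neither did any of all genes tested (0%). At an unadjusted p under 0.05 there were 9 of the 42, all lower, where 5.01% of all tested genes were lower at that level. In order of p these were Cdkn3, Pcna, Cdk1, Ccnb1, Aurka, Top2a, Mcm7, Ttk and Mki67. The edgeR quasi-likelihood test called 0 of the 42 genes (10 lower unadjusted, against 4.66% of all) and limma-voom 0 (8, against 4.70%). DESeq2 called 0 of them (11 lower unadjusted, against 2.31% of the 42949 genes it gave a p). It was run without the filter, so that share also covers genes of low counts and is not like the others. DESeq2 called 25 genes in all, 0.181% of those it gave an adjusted p. For lower means in whole tissue, fewer dividing cells, less of these RNAs per cell and a different mix of tissue layers cannot be told apart.

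The count at an unadjusted p moved with single libraries. It was 4 without TDCA 1 (3.73% of all genes), 3 without TDCA 3 (5.62%), 4 without water 1 (3.90%), 4 without water 2 (5.52%), 5 without water 3 (4.03%) and 15 without water 4 (4.24%). The number of genes with a lower mean lay between 35 and 42 and their median between −0.34 and −0.20 over these and the other single omissions. With the filter raised to 50 normalized counts, 38 genes stayed in the test and 6 were lower at that level (5.81%), and with replicate number as a block 6 of 42 were (3.36%). Water 3 differed from the rest in its share of mitochondrial ribosomal RNA, 30.2% of reads against 40.5 to 48.1% in the other libraries, and without it 36 genes had a lower mean with a median of −0.21. The part of that share in the cell cycle values was not tested further. Water 1 and TDCA 5 lie at the ends of the spread of smooth muscle markers, and without both 39 genes had a lower mean with a median of −0.29 and 5 at an unadjusted p under 0.05 (3.21% of all).

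Of the 42 genes, 38 have an adjusted p in the authors' deposited table, and 0 of them lie under 0.05, where 0.181% of all genes with one do. The smallest in the authors' deposited table is 0.0523, for Pcna (log2 fold change −0.61). Cdkn3 has the smallest unadjusted p of the 42 in the authors' deposited table (1.17e-04, log2 fold change −1.19) and, like Ccne1, Ttk and Ube2c, has no adjusted p there.

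Among S phase genes, 14 of 17 had a lower mean in TDCA ilea, with a median log2 fold change of −0.16 that was −0.06 without TDCA 3. Pcna (ENSMUSG00000027342), the sliding clamp of the polymerases, had the smallest p of this phase. It had 384, 421, 557, 574 and 528 normalized counts in TDCA 1 to 5, against 956, 737, 709, 662 and 706 in water 1 to 5. Every TDCA ileum lay below every water ileum, and the means were 493 ± 85.0 in TDCA and 754 ± 116 in water ilea (SD, n = 5 each). The difference did not pass (log2 fold change −0.62, SE 0.14, limma adjusted p = 0.448; two-sided exact permutation p = 0.00794, the smallest that 252 labelings can give). Ranges without overlap were found for 2 of the 42 genes, Pcna and Cdkn3, beside 1.40% of all tested genes in either direction and 0.823% in the lower one. Without TDCA 2 there were 4 (Pcna, Tk1, Cdkn3 and Aurka), beside 2.10%.

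The helicase and its loaders, 9 genes, had a median log2 fold change of −0.20, and their members differed in how far the groups overlapped. Mcm7 had 241, 253, 246, 291 and 323 normalized counts in TDCA 1 to 5, against 297, 318, 380.2, 293 and 365 in water 1 to 5. The TDCA values lay below the water values except that of TDCA 5, which exceeded 3 of them (log2 fold change −0.29, SE 0.12, limma adjusted p = 0.45; exact permutation p = 0.0476). Mcm7 shares 321 of its 4426 annotated exonic bases with Ap4m1 on the opposite strand, and whether reads were counted by strand is not known. Mcm5 had 143, 136, 92.6, 156 and 153 normalized counts in TDCA 1 to 5, against 178, 202, 216, 115 and 213 in water 1 to 5. All TDCA ilea were below the median of the water ilea, but water 4 lay below 4 of them (log2 fold change −0.43, SE 0.20, limma adjusted p = 0.468). Mcm2 had 155, 189, 136, 199.7 and 176 normalized counts in TDCA 1 to 5, against 273, 231, 187, 199.6 and 186 in water 1 to 5. Here TDCA 2 and TDCA 4 reached the level of water 3, water 4 and water 5 (log2 fold change −0.33, SE 0.15, limma adjusted p = 0.46). Mcm4 averaged 228 ± 24.8 in TDCA and 244 ± 35.0 in water ilea, Mcm6 454 ± 120.1 in TDCA and 511 ± 68.0 in water ilea and Mcm3 213 ± 39.2 in TDCA and 209.6 ± 36.7 in water ilea (SD, n = 5 each), and the ranges overlapped for each. Subunits of a single hexamer thus had log2 fold changes between −0.43 and 0.02, the last turning to −0.01 with quantile normalization.

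Among the loaders, Cdc6 averaged 86.6 ± 33.8 in TDCA and 76.0 ± 13.3 in water ilea and Cdt1 107 ± 27.3 in TDCA and 114 ± 33.3 in water ilea (SD, n = 5 each), with log2 fold changes of 0.13 and −0.07, and each of them changed sign when certain single libraries were dropped. Gmnn encodes geminin, which blocks Cdt1 after origins have fired. It averaged 217 ± 31.6 in TDCA and 271 ± 43.5 in water ilea, and all TDCA ilea lay below the median of the water ilea (log2 fold change −0.32, SE 0.15, limma adjusted p = 0.469).

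Genes of deoxynucleotide supply, 4 in number, all had lower means, and 0 reached an unadjusted p under 0.05. Tyms, which encodes the thymidylate synthase, had 87.5, 82.6, 66.4, 115 and 92.3 normalized counts in TDCA 1 to 5, against 133, 145, 148, 94.4 and 86.8 in water 1 to 5. Water 4 and water 5 lay among the TDCA ilea, and the other water ilea above all of them (log2 fold change −0.44, SE 0.20, limma adjusted p = 0.46). Tk1, the thymidine kinase of S phase, averaged 101 ± 31.4 in TDCA and 128 ± 17.8 in water ilea, with TDCA 2 above every water ileum at 154 normalized counts (log2 fold change −0.38, SE 0.20, limma adjusted p = 0.496). For Rrm2, the regulated subunit of ribonucleotide reductase, values were 74.4, 73.5, 63.8, 72.0 and 72.7 normalized counts in TDCA 1 to 5, against 73.3, 80.7, 81.6, 49.0 and 87.7 in water 1 to 5. The TDCA ilea were close together and within the range of the water ilea (log2 fold change −0.04, SE 0.18, limma adjusted p = 0.95). Its partner Rrm1 averaged 389 ± 66.8 in TDCA and 434 ± 56.7 in water ilea (log2 fold change −0.16).

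Cyclin E and its kinase were near equal between the groups in mean. Ccne2 averaged 673 ± 272 in TDCA and 723 ± 284 in water ilea, Ccne1 39.2 ± 15.9 in TDCA and 34.1 ± 5.54 in water ilea and Cdk2 254 ± 41.3 in TDCA and 267 ± 44.0 in water ilea (SD, n = 5 each), with log2 fold changes of −0.11, 0.07 and −0.07 and adjusted p of 0.885 or more. Each turned in sign under some alternative. Ccne2 ranged over 454 to 973 normalized counts in TDCA and 396 to 1175 in water ilea, and it shares 609 of its 3495 exonic bases with Ints8 on the opposite strand. Ccnd1, the G1 cyclin that growth signals induce, had 504, 701, 570.4, 455 and 534 normalized counts in TDCA 1 to 5, against 499.7, 694, 467, 519 and 556 in water 1 to 5. The groups covered the same span (log2 fold change 0.01, SE 0.14, limma adjusted p = 0.978; exact permutation p = 0.897), and the difference turned to −0.08 without TDCA 2.

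**Figure D2:**
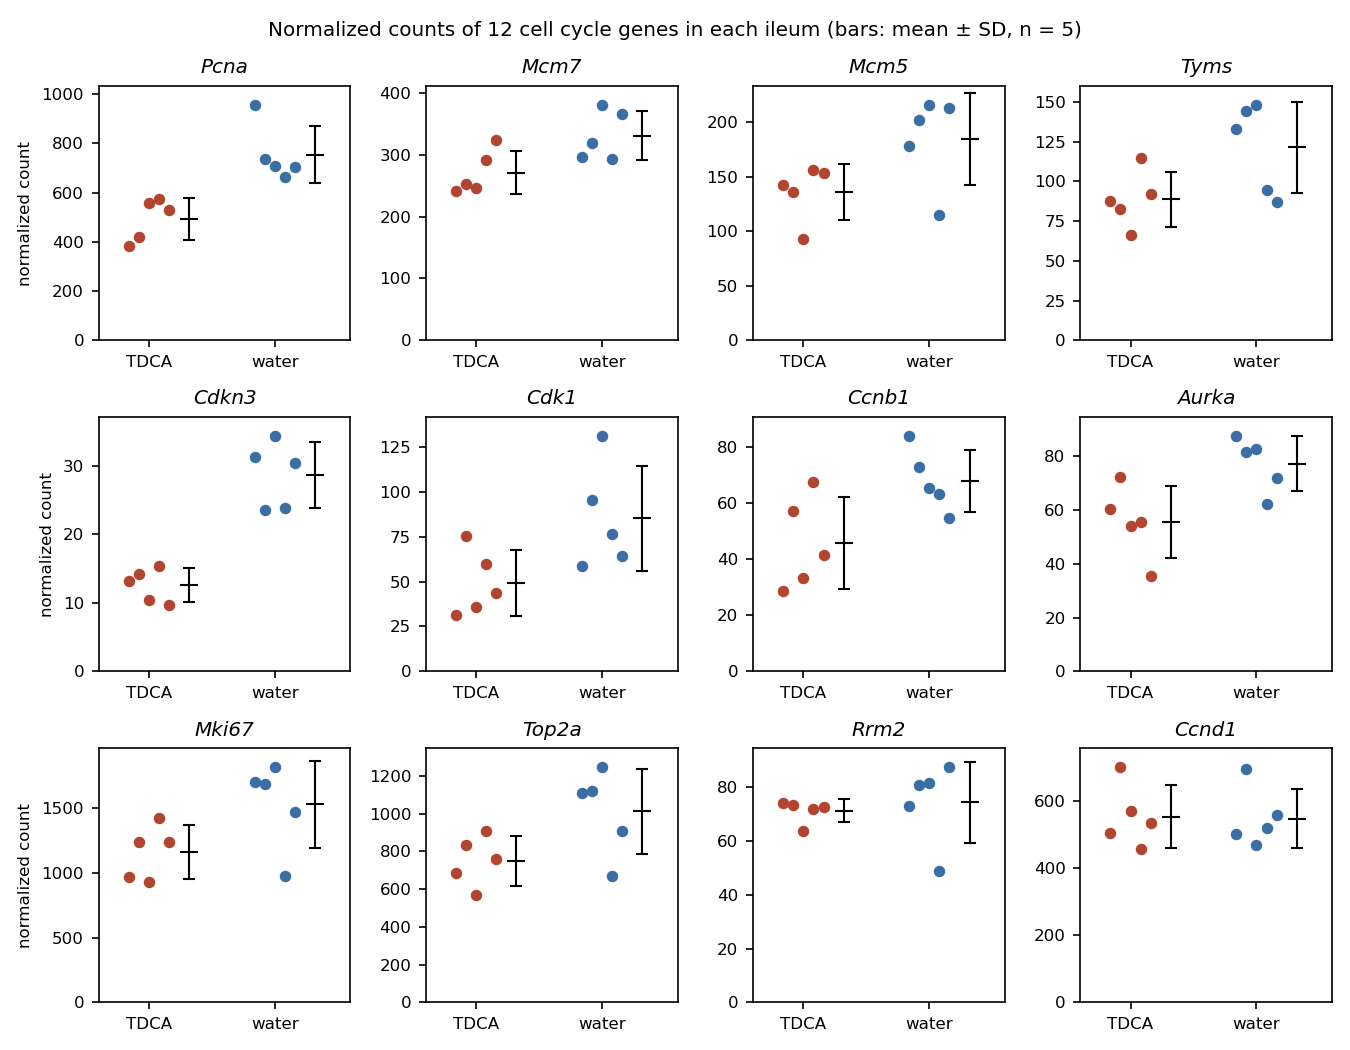
Normalized counts (vertical axes, each from 0) of 12 genes in the 5 TDCA and the 5 water ilea, points in replicate order from left to right and black bars showing mean ± SD. TDCA points lie below all water points for Pcna and Cdkn3, the groups overlap for the other genes, and Ccnd1 and Rrm2 show means of nearly the same height.

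All 24 G2/M genes had a lower mean in TDCA ilea, with a median log2 fold change of −0.32, and 7 of them reached an unadjusted p under 0.05, where 5.01% of all tested genes were lower at that level. For all 42 genes that count was 3 to 5 without TDCA 1, TDCA 3, water 1, water 2 or water 3. The share of all tested genes was then 3.73 to 5.62%. Cdkn3 (ENSMUSG00000037628), a phosphatase that removes an activating phosphate from cyclin-dependent kinases, had the smallest p of the 42. It had 13.1, 14.3, 10.5, 15.4 and 9.76 normalized counts in TDCA 1 to 5, against 31.2, 23.5, 34.4, 23.9 and 30.4 in water 1 to 5. Every TDCA ileum lay below every water ileum, at 12.6 ± 2.43 in TDCA and 28.7 ± 4.77 in water ilea (SD, n = 5 each). The difference did not pass (log2 fold change −1.13, SE 0.23, limma adjusted p = 0.448; exact permutation p = 0.00794, again the smallest possible). These values rest on few reads, 11 to 18 in TDCA and 20 to 35 in water libraries. Leaving out any single library gave a log2 fold change between −1.20 and −1.05.

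Cdk1, the kinase of mitosis, had 31.5, 75.5, 35.8, 60.0 and 43.5 normalized counts in TDCA 1 to 5, against 58.9, 95.3, 131, 76.5 and 64.2 in water 1 to 5. TDCA 2 and TDCA 4 lay within the water range and the remaining TDCA ilea below it (log2 fold change −0.79, SE 0.28, limma adjusted p = 0.448; exact permutation p = 0.0476). Its partner cyclin gene Ccnb1 had 28.9, 57.1, 33.2, 67.7 and 41.7 normalized counts in TDCA 1 to 5, against 84.1, 72.9, 65.5, 63.3 and 54.7 in water 1 to 5. TDCA 1, TDCA 3 and TDCA 5 were below all water ilea (log2 fold change −0.62, SE 0.25, limma adjusted p = 0.448; exact permutation p = 0.0556). Ccnb2 averaged 50.6 ± 18.5 in TDCA and 71.6 ± 35.3 in water ilea, and Ccna2, whose cyclin serves both S phase and mitosis, 214 ± 63.9 in TDCA and 276 ± 65.0 in water ilea (SD, n = 5 each), with log2 fold changes of −0.43 and −0.38. Foxm1, a transcription factor of the G2/M programme, averaged 62.8 ± 12.2 in TDCA and 75.5 ± 12.2 in water ilea (log2 fold change −0.27).

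Mitotic kinase genes had log2 fold changes from −0.52 to −0.05. Aurka, the Aurora kinase of spindle poles, had 60.4, 72.4, 54.2, 55.7 and 35.5 normalized counts in TDCA 1 to 5, against 87.7, 81.8, 82.7, 62.1 and 72.0 in water 1 to 5. Only TDCA 2 reached into the water range (log2 fold change −0.49, SE 0.20, limma adjusted p = 0.448; exact permutation p = 0.0238). Ttk, a kinase of the spindle checkpoint, had 28.0, 31.6, 23.6, 38.6 and 26.6 normalized counts in TDCA 1 to 5, against 39.6, 50.5, 60.2, 27.5 and 41.7 in water 1 to 5. Water 4 lay below all but 2 of the TDCA ilea, and the remaining water ilea were above all of them (log2 fold change −0.52, SE 0.24, limma adjusted p = 0.455). Aurkb, the Aurora kinase of the chromosomal passenger complex, averaged 54.8 ± 14.4 in TDCA and 66.2 ± 12.9 in water ilea, and the checkpoint kinase genes Bub1 and Bub1b had log2 fold changes of −0.19 and −0.23. Plk1 averaged 59.2 ± 9.96 in TDCA and 66.0 ± 34.2 in water ilea, with water 3 alone at 124.6 normalized counts, and without water 3 its log2 fold change turned to 0.21.

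The anaphase-promoting complex works with Cdc20, its activator, and Ube2c, its ubiquitin-conjugating enzyme. Ube2c averaged 27.6 ± 11.8 in TDCA and 34.7 ± 14.2 in water ilea (SD, n = 5 each). Cdc20 averaged 75.8 ± 26.6 in TDCA and 77.5 ± 16.1 in water ilea (SD, n = 5 each), and it turned in sign without TDCA 3 (0.10) or water 2 (0.0059). Centromere and passenger genes had log2 fold changes of −0.31 for the centromeric histone Cenpa, −0.25 for Cenpf, −0.20 for survivin (Birc5) and −0.18 for the motor Cenpe. With the smooth muscle covariate these were −0.032 for Birc5, −0.049 for Cenpe and −0.12 for Cenpf. Without TDCA 3 that of Cenpa was −0.11, and without water 3 that of Birc5 was −0.047. Among spindle genes, Kif11, the motor that separates the poles, averaged 248 ± 59.1 in TDCA and 316 ± 57.8 in water ilea and Tpx2, which activates Aurora A, 116 ± 28.0 in TDCA and 145 ± 29.2 in water ilea. Hmmr had a log2 fold change of −0.25. Kif23, a motor of cytokinesis, lay between 329 and 356 normalized counts in all TDCA ilea and between 268 and 506 in water ilea. All TDCA ilea were above the median of the water ilea for Kif23. Only water 1 at 506 and water 3 at 501 normalized counts exceeded them, though the TDCA mean was lower.

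The classical proliferation antigen Mki67 had 967, 1239.7, 928, 1424 and 1243 normalized counts in TDCA 1 to 5, against 1699.7, 1684, 1819.6, 975 and 1474 in water 1 to 5. All TDCA ilea were below the median of the water ilea, and water 4 lay among the lowest TDCA ilea (log2 fold change −0.38, SE 0.18, limma adjusted p = 0.455; exact permutation p = 0.0873). Top2a, the topoisomerase that untangles replicated chromosomes, had 684, 833, 568, 906 and 758 normalized counts in TDCA 1 to 5, against 1109.9, 1120.0, 1247, 670.4 and 907 in water 1 to 5. The pattern was the same, with water 4 below 4 of the 5 TDCA ilea (log2 fold change −0.42, SE 0.17, limma adjusted p = 0.448). Without water 4, the ranges of Mcm5, Pcna, Cdkn3, Ttk, Mki67 and Top2a did not overlap, 6 of the 42 genes beside 2.57% of all tested genes, a set named after its values were seen.

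**Figure D3:**
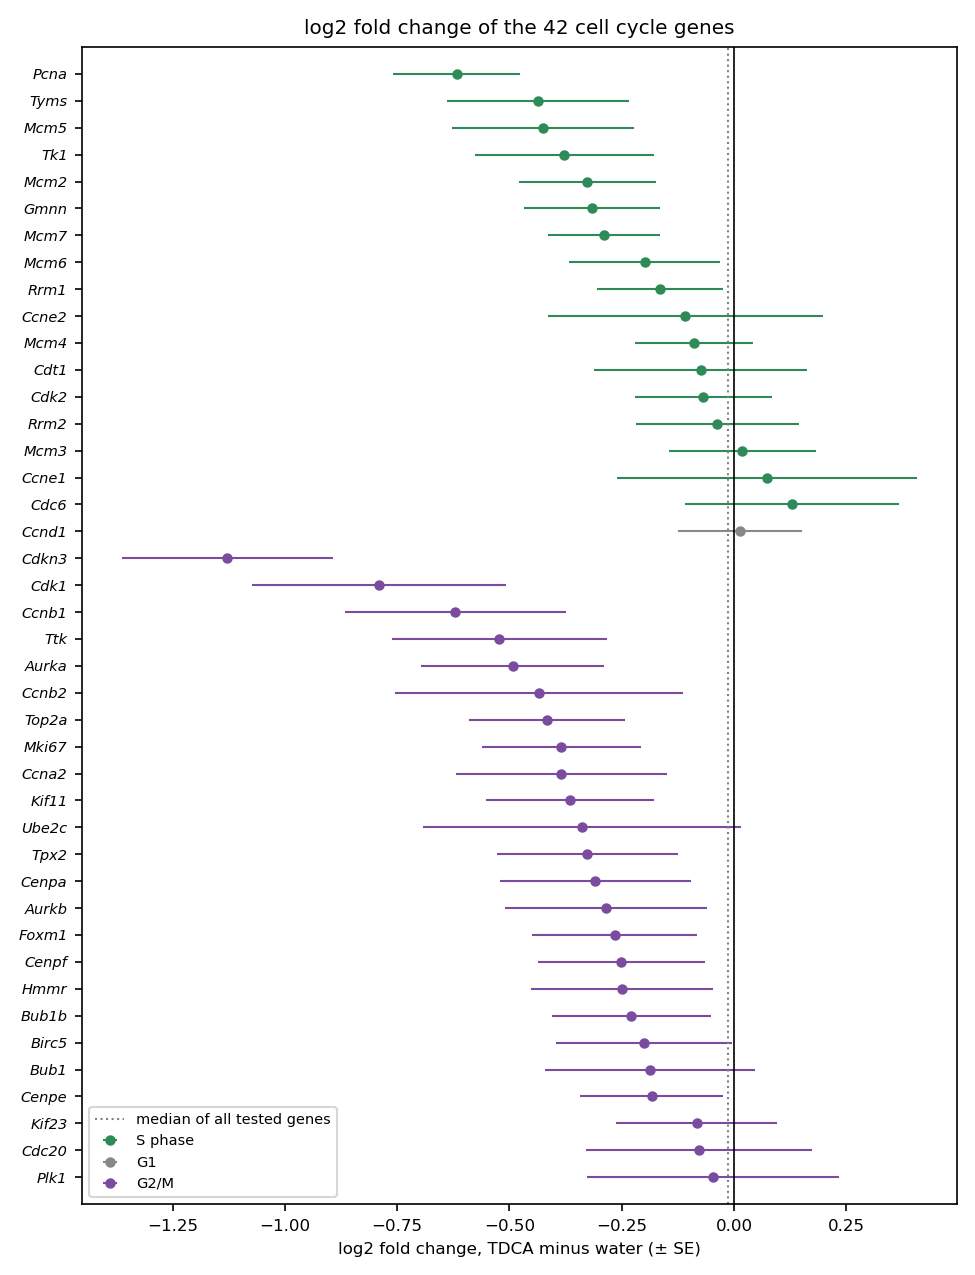
Fold change on the log2 scale, TDCA minus water (horizontal axis, bars ± SE), for each of the 42 genes (vertical axis) by phase, with the median of all tested genes as a dotted line. All 24 G2/M genes lie left of 0, as do 14 of the 17 S phase genes, with Cdkn3 farthest left at −1.13.

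Per kilobase of annotated exons the order of levels was led by Pcna, with normalized counts per kilobase of 205 ± 35.4 in TDCA and 314 ± 48.4 in water ilea (SD, n = 5 each). Next in water ilea came Ccne2 at 193 ± 77.8 in TDCA and 207 ± 81.1 in water ilea, Gmnn at 148 ± 21.6 in TDCA and 185 ± 29.7 in water ilea and Mki67 at 115 ± 20.7 in TDCA and 152 ± 33.2 in water ilea, and in water ilea Ccne2 differed from Gmnn, and Gmnn from Mki67, by less than the larger SD of the pair. Ccnd1 stood at 117 ± 19.7 in TDCA and 116 ± 18.7 in water ilea and Top2a at 83.2 ± 14.5 in TDCA and 112 ± 25.1 in water ilea. The lowest levels per kilobase were those of Cdkn3 at 5.32 ± 1.03 in TDCA and 12.1 ± 2.01 in water ilea and Ttk at 6.03 ± 1.17 in TDCA and 8.92 ± 2.49 in water ilea. Lengths are unions of exons in GENCODE M21 and were found for all 42 genes. In that annotation 11 of the 42 share exonic bases with another gene, among them Ccnd1, with 1100 of 4709 bases shared with LTO1, and Ccna2, with 510 of 4083 shared with Exosc9, both on the opposite strand, so their counts are uncertain.

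The libraries differed among themselves as well as between the groups. TDCA 3 held the lowest of the 10 values for 20 of the 42 genes and TDCA 1 for 7, and water 3 held the highest for 18 and water 1 for 7. The mean log2 level of the 42 genes, centred on each gene's mean, was −0.41 in TDCA 3, −0.24 in TDCA 1, −0.15 in TDCA 5, 0.03 in TDCA 2 and 0.07 in TDCA 4. It was −0.15 in water 4, 0.11 in water 5, 0.15 in water 1, 0.23 in water 2 and 0.36 in water 3. Water 4 lay among the TDCA ilea, and all other water ilea lay above all TDCA ilea. The G2/M genes spread more among mice of a group than the S phase genes, with a within-group SD of this level of 0.28 against 0.12. The G2/M level minus the S phase level ran from −0.31 to 0.10 in TDCA and from −0.17 to 0.43 in water ilea, and these ranges overlapped. Together the 42 genes took 0.0204% of reads in TDCA 3 (exact 95% Clopper-Pearson interval 0.0199 to 0.0208%) to 0.0302% in TDCA 4 (0.0296 to 0.0307%), and 0.0222% in water 4 (0.0217 to 0.0227%) to 0.0421% in water 3 (0.0414 to 0.0429%), intervals of counting error only. The reads divided by here include mitochondrial ribosomal RNA, 30.2% of reads in water 3 and 40.5 to 48.1% in the other libraries. Shares without that RNA were not computed, so the share of water 3 is not directly comparable with the rest.

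**Figure D4:**
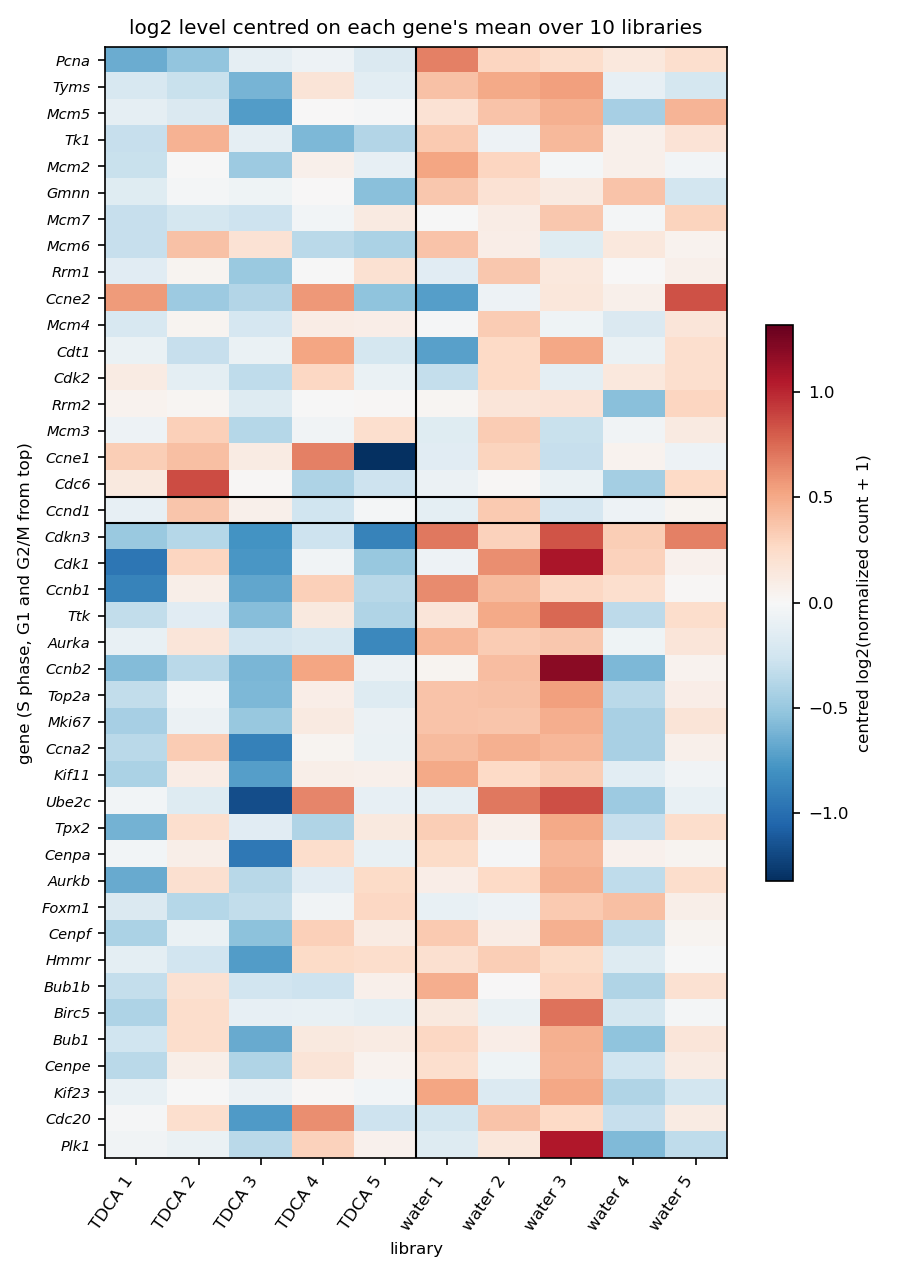
Centred log2 level (colour) of each gene (rows, S phase above, Ccnd1 between, G2/M below) in each library (columns, TDCA left, water right), red above and blue below the mean of that gene over 10 libraries. The TDCA 3 column is the bluest, with the lowest value for 20 genes, the water 3 column the reddest, with the highest for 18, and water 4 is blue for most G2/M genes.

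Markers of other cell types were compared between the groups in the same fit. All 12 smooth muscle markers had a higher mean in TDCA ilea, 9 at an unadjusted p under 0.05 (5.95% of all tested genes were higher at that level) and 0 at an adjusted p under 0.05 in limma, edgeR, limma-voom or DESeq2. Their summed level was 178880 to 314498 normalized counts in TDCA and 80017 to 234181 in water ilea. With the muscle level as a covariate, 37 of the 42 cell cycle genes had a lower coefficient for TDCA, with a median of −0.26, and 4 were lower at an unadjusted p under 0.05, beside 1.97% of all genes. Enterocyte markers had a lower mean for 10 of 11, 4 of them at an unadjusted p under 0.05, beside 5.01% of all tested genes. The ranges of Alpi and Npc1l1 did not overlap, beside 1.40% of all. Paneth cell markers had a lower mean for 9 of 10, 6 of them at an unadjusted p under 0.05 (5.01% of all tested genes were lower at that level), and the ranges of Ang4, Defa24 and Defa26 did not overlap (1.40% of all). DESeq2 called 4 Paneth markers at an adjusted p under 0.05, where it called 0.181% of all genes, and limma called 0. The marker lists were chosen with earlier results of these data known, so such counts are not independent of the data. Summed Paneth levels were 14916 to 31507 in TDCA and 27805 to 35855 in water ilea. Paneth cells do not divide, and their part in the values of the cell cycle genes was not tested.

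Crypt base stem cell markers, 9 of 10 tested, were split, with 4 lower and 5 higher and a median log2 fold change of 0.0046. Their summed level was 10823 to 12797 normalized counts in TDCA and 9800 to 13842 in water ilea. Slc12a2 weighs most in these sums, at 5314 ± 1013 in TDCA and 4978 ± 772 in water ilea. Lgr5, the defining marker of these cells, averaged 203 ± 37.4 normalized counts in TDCA and 185 ± 29.7 in water ilea (log2 fold change 0.13), and Olfm4 472 ± 189.6 normalized counts in TDCA and 1445 ± 655 in water ilea (log2 fold change −1.57, called by DESeq2 and not by limma). B cell and germinal centre markers had 4 of 11 tested genes lower and 7 higher, and summed to 694 to 2173 normalized counts in TDCA and 680 to 4282 in water ilea. Water 3, highest in cell cycle genes, had the lowest summed B cell level of all libraries, and water 5 the highest. TDCA 3, lowest in cell cycle genes, had the lowest summed B cell level of the TDCA ilea, 694 against 680 in water 3. Bcl6 weighs most in the sums of these libraries, at 416 normalized counts in TDCA 3 and 316 in water 3. By the mean centred log2 level of the B cell list, TDCA 3 was instead the lowest of all libraries at −1.44. Water 1 followed at −1.07, and then water 3, so the order of the lowest libraries depended on the measure. T cell markers had 5 of 9 tested genes lower, with sums of 397 to 1517 in TDCA and 535 to 1088 in water ilea. No marker of these lists was at 0 in all libraries, and the part of lymphocytes in the cell cycle values was not tested.

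**Figure D5:**
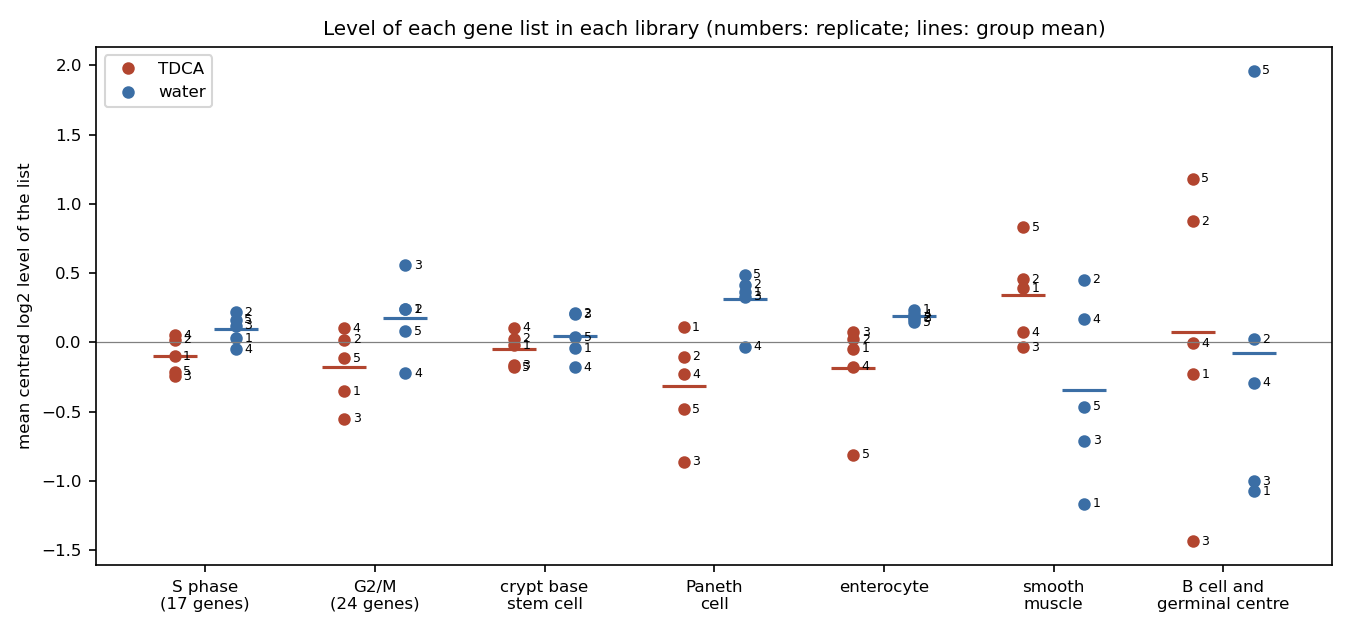
Mean centred log2 level (vertical axis) of the S phase genes, the G2/M genes and 5 marker lists (horizontal axis) in each library, TDCA left of water in each pair, with replicate numbers beside points and lines at group means. S phase and G2/M points of water 4 lie among those of TDCA ilea. So do the S phase point of water 1 and the G2/M point of water 5. The spread of the B cell list exceeds that of the other lists.

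Of 134 further genes of the same machinery, 133 were tested, 108 with a lower and 25 with a higher mean in TDCA ilea and a median log2 fold change of −0.14. Of these, 8 were lower and 1 higher at an unadjusted p under 0.05, beside 5.01% and 5.95% of all genes, and 0 passed the adjusted threshold in limma, edgeR, limma-voom or DESeq2 (unadjusted 9 lower in edgeR and limma-voom and 11 in DESeq2). Ranges did not overlap for 2 of the 133, Gins4 and Ticrr. That share is near the 1.40% of all tested genes, so it sets the list apart in nothing. Origin and fork genes had 27 of 39 lower (median −0.13), among them Pole, the catalytic subunit of the leading-strand polymerase, at 86.4 ± 13.4 normalized counts in TDCA and 124 ± 21.6 in water ilea (SD, n = 5 each; log2 fold change −0.51), and Ticrr at 60.5 ± 4.97 normalized counts in TDCA and 83.4 ± 13.4 in water ilea (−0.45). The higher genes with the smallest p there were Tipin, of the fork protection complex, at 122 ± 14.8 normalized counts in TDCA and 87.8 ± 18.6 in water ilea (0.49), and Rpa1 (0.23). Nucleotide synthesis and chromatin assembly genes had 15 of 16 lower (median −0.13), those with the smallest p being Impdh2 of guanine nucleotide synthesis (−0.30) and Uhrf1, which guides maintenance methylation (−0.47), with Dut (0.0039) as the exception.

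Genes of mitosis and cytokinesis outside the list had 42 of 47 lower (median −0.19), those with the smallest p being Kif20b at 215 ± 46.6 normalized counts in TDCA and 282 ± 42.8 in water ilea (−0.40) and Kif2c at 32.8 ± 12.8 normalized counts in TDCA and 51.6 ± 13.9 in water ilea (−0.70). The higher genes with the smallest p were Wee1, the kinase that restrains Cdk1 (0.32), and Ncapg of condensin (0.23). Regulators of the E2F and MuvB systems had 17 of 20 lower (median −0.14), those with the smallest p being Mycn (−0.53) and Rbl1 (−0.24), while E2f6 (0.14) and Lin52 (0.02) were higher in mean. The G1 kinases, cyclins and CDK inhibitors were near the background, 7 of 11 tested lower with a median of −0.01, with Cdk4 (−0.16) and the inhibitor gene Cdkn2b (−0.27) on the lower side and Ccnd2 (0.23) and Cdkn2c (0.23) on the higher. Cdkn2a was below the filter.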

How the data were processed

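RNA of the distal ileum was sequenced in 5 TDCA and 5 water mice. DESeq2 1.28.0, MultiQC 1.9 and the genome build GRCm39 were named by the submitters' processing notes, while the aligner, counter, strand setting and annotation were not given in the sources consulted. The authors deposited normalized counts, a signal that is reads over a size factor for each library. Each library's values were whole multiples of its smallest one (100% of them, within 1e-04 of a read), which gave back whole reads. Per the file headers, the authors' comparison table adds log2 fold change, Wald score, p-value and its adjusted form.

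Differences were tested with limma-trend, robust (limma 3.58.1 in R 4.3.3), after taking log2 of the normalized count plus 1, which understates the change of low genes. Genes needed at least 10 normalized counts in at least 5 libraries, and p-values were two-sided and adjusted by Benjamini-Hochberg over all 17507. The scripts were tested on simulated data. Alternatives were edgeR 4.0.16, limma-voom and DESeq2 1.42.0 on the whole reads, other pseudocounts, filters and scalings, a replicate block, omitted libraries and a smooth muscle covariate. The genes, lists, motifs and alternatives were chosen with earlier results of these data known. Values in every library are given for the 12 genes with the smallest limma p, Rrm2 and Ccnd1, and each further list is represented by the 2 genes with the smallest p in each direction. Lengths and overlaps came from GENCODE M21, which belongs to GRCm38. The 5 annotated pseudogenes named after listed genes held at most 6.29 normalized counts on average in a group. Intervals cover counting error only, as copied reads are not independent molecules.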

Additional observations from a re-analysis of the deposited data

Results flagged for a closer look

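In 3 of the 84 sets of 5 values, 1 library stood far from the other 4, where chance gives about 1 in 20. Cdt1, which loads the helicase at origins, had 154 normalized counts in TDCA 4, against 86.7 to 101 in the other TDCA ilea. Pcna had 956 normalized counts in water 1, against 662 to 737 in the other water ilea, and its log2 fold change was −0.53 without water 1. Rrm2 had 63.8 normalized counts in TDCA 3, against 72.0 to 74.4 in the other TDCA ilea, and TDCA 3 was also the lowest library for 20 of the 42 genes.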

How the results depend on the processing

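Under 22 alternatives limma, edgeR and limma-voom called 0 genes in all, DESeq2 called 25 genes, and none of them called a cell cycle gene. Listed genes lower at an unadjusted p under 0.05 numbered 9 in limma over all libraries (5.01% of all tested genes). They numbered 4 with the smooth muscle covariate (1.97%) and 5 without both water 1 and TDCA 5 (3.21%). With single libraries left out they ran from 3 without TDCA 3 (5.62%) to 15 without water 4 (4.24%). Genes without overlap numbered 2 to 6 with single libraries left out. There were 6 without water 4, beside 2.57% of all tested genes. There were 4 without TDCA 2 (Pcna, Tk1, Cdkn3 and Aurka), beside 2.10%. The median log2 fold change stayed below 0 throughout, at −0.34 to −0.20 for all 42 genes, −0.24 to −0.06 for S phase and −0.42 to −0.21 for G2/M genes with single libraries left out. The number of genes with a lower mean was then 35 to 42.

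The filter of 50 kept 38 of the 42 genes, 35 of them lower. The sign was kept by 31 genes in all alternatives that tested them, which leaves out the filter of 50 for Cdkn3, Ttk and Ube2c, and turned in 11, whose values over all libraries lay between −0.11 and 0.13. Log2 fold changes that turned were, with quantile normalization, those of Mcm3 (−0.013) and Ccne1 (−0.030). With the smooth muscle covariate they were Mcm3 (−0.22), Rrm2 (0.023), Ccnd1 (−0.14), Plk1 (0.052) and Kif23 (0.21), and without both water 1 and TDCA 5 Mcm3 (−0.072), Ccnd1 (−0.0072) and Kif23 (0.036). With single libraries left out, turns of sign gave these ranges: −0.057 to 0.12 for Mcm3, −0.070 to 0.25 for Cdc6, −0.26 to 0.043 for Cdt1, −0.18 to 0.028 for Rrm2, −0.084 to 0.41 for Ccne1, −0.30 to 0.088 for Ccne2, −0.16 to 0.0063 for Cdk2, −0.076 to 0.10 for Ccnd1, −0.20 to 0.21 for Plk1, −0.24 to 0.10 for Cdc20 and −0.19 to 0.037 for Kif23. The cause was not tested for any of these.

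With the replicate number as a block, 6 of the 42 genes were lower at an unadjusted p under 0.05 (3.36% of all) and 0 were called. Correlations of same-numbered libraries ran from −0.15 to 0.17 and 0 libraries correlated best with their own number. These values gave no sign of a pairing by number, but they cannot show whether libraries of the groups shared a batch. The numbers follow the sample descriptions, and the different numbers in the sample titles were not tried. Depth limits Cdkn3 most, where 3 reads are worth 2.57 to 3.60 normalized counts. With 5 mice a group an exact permutation test cannot go below 0.00794, and batches are not given in the labels.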
